A study of Mus musculus with 33 samples.

Results

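The 10 genes described here are the 3 members of the NR4A family of orphan nuclear receptors, *Nr4a1*, *Nr4a2* and *Nr4a3*, and 7 immediate early genes for transcription factors, *Fos*, *Fosb*, *Fosl1*, *Egr1*, *Jun*, *Junb* and *Atf3*. They were chosen from these data by name, after *Nr4a3* had been seen to go from no counts in *wild-type* ESCs to the largest rise in *Hp1α/β/γΔ/Δ* cells, so their values in the triple mutant are given as a description without a test. All 10 were found by gene name among the 55487 genes of the deposited tables.

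Immediate early genes are transcribed within minutes of a signal such as serum, a growth factor, calcium or stress, and need no new protein synthesis for it. The AP-1 factors FOS, FOSB and FOSL1 bind DNA as dimers with JUN or JUNB, ATF3 is a stress-induced relative that also pairs with JUN proteins, EGR1 is a zinc finger factor downstream of the ERK pathway, and the NR4A receptors bind DNA without a known natural ligand that has to switch them on. HP1α, HP1β and HP1γ, encoded by *Cbx5*, *Cbx1* and *Cbx3*, are chromatin proteins that bind methylated lysine 9 of histone H3, and SETDB1 is one of the enzymes that writes this mark.

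RNA-seq was performed on 33 libraries of C57BL/6 mouse embryonic stem cells (ESCs), 3 in each of 11 groups. The groups were *Hp1αΔ/Δ*, *Hp1βΔ/Δ* and *Hp1γΔ/Δ* single mutants, *Hp1α/βΔ/Δ*, *Hp1β/γΔ/Δ* and *Hp1α/γΔ/Δ* double mutants, *Hp1α/β/γΔ/Δ* triple mutants, 2 sets labelled *wild-type* (set A, the control of the single, the *Hp1α/β* and the triple mutants, and set B, the control of the other double mutants), *Setdb1F/F* cells and *Setdb1* knockout cells. Per the study's methods, the single and double mutants were constitutive CRISPR knockout lines, whereas the triple mutants came from *Hp1α/β*-null cells with floxed *Hp1γ* that were transfected with Cre, so that transfection and loss of *Hp1γ* cannot be told apart between them. The study gives cells of that floxed line with a control vector as their counterpart, whereas the labels call set A *wild-type*, and the labels were followed. Differences of the triple mutant from set A thus cover the loss of all 3 proteins together with the transfection. The study also reports massive apoptosis, cell-cycle arrest and differentiated morphology in the triple mutant cells, and the part of these in the differences was not tested. *Setdb1* was inactivated by Cre from a floxed allele, so delivery of Cre and loss of *Setdb1* cannot be told apart in that comparison either. After CRISPR editing, individual clones were isolated and expanded. Clones of a genotype were not compared, so genotype and clone cannot be told apart between different lines. All cells were kept on feeder fibroblasts in serum and LIF, trypsinized and freed of feeders by plating before RNA extraction.

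Total counts ran from 17330936 to 25743149 per library, and levels are given as CPM, counts relative to the library's total, with TMM scaling over all 33 libraries. Scaling bears on 2 mutants in particular: with library totals alone, the median log2 difference of all genes moved by 0.27 in *Setdb1* knockout cells and by 0.25 in the triple mutant against set A, both upwards, and by −0.18 in *Hp1α/γΔ/Δ* ESCs. The targeted genes followed the labels: *Cbx5* was at 85.4 to 208 CPM in the single and double mutants that lack it and at 267 to 276 CPM in the triple mutant, against 439 to 490 CPM in both *wild-type* sets, and *Cbx1*, *Cbx3* and *Setdb1* were below every library of the matching control in each mutant named for them. Set A, at 479 to 490 CPM of *Cbx5* and 430 to 448 CPM of *Cbx1*, was far from *Hp1α/βΔ/Δ* ESCs at 199 to 208 and 94.7 to 97.6 CPM. The 12 ESC markers were all detected in every group and summed to 1638 to 1680 CPM in the triple mutant and to 4095 to 9805 CPM in every other group, while 15 feeder fibroblast markers summed to 18.8 to 72.2 CPM. Replicate 2 of *Hp1α/γΔ/Δ* stood apart from the other libraries of its group. Its ESC marker sum was 9805 CPM against 6868 and 7065 CPM in the other two. Since bulk RNA was sequenced, fewer cells that express a gene and less RNA per cell cannot be told apart.

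The NR4A genes lie on 3 chromosomes (GRCm38, GENCODE M21): *Nr4a1* (ENSMUSG00000023034) at chromosome 15, 101254269 to 101274795, *Nr4a2* (ENSMUSG00000026826) at chromosome 2, 57106830 to 57124003 on the reverse strand, and *Nr4a3* (ENSMUSG00000028341) at chromosome 4, 48045153 to 48086447. The promoters of this family and of *Fos* are shown because they share a short sequence that the choice of genes did not use, TGACG, the core of each arm of the cAMP response element (CRE) to which CREB and ATF proteins bind. It is printed in capitals as TGACG or, where it lies on the other strand, as CGTCA. The sequences are from RefSeq (GRCm38.p6), 5′ to 3′ on the gene's strand, and start 250 bases before the RefSeq transcription start. For *Nr4a1* (chr15:101266596-101266845), *Nr4a2* (chr2:57124004-57124253, reverse strand) and *Fos* (chr12:85473640-85473889) they run to the base before that start. The *Nr4a1* stretch lies inside the gene as GENCODE draws it, upstream of its later exons and in none of them, and the *Nr4a3* stretch (chr4:48045055-48045152) covers the first 98 bases of that window, up to the first GENCODE exon, with 3 of its 4 copies.
Nr4a1: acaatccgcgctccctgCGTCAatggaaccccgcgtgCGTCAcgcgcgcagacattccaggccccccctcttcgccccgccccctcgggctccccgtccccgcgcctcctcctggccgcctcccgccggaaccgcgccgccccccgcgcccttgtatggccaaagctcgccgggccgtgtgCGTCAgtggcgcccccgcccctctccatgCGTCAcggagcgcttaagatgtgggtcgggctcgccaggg
Nr4a2: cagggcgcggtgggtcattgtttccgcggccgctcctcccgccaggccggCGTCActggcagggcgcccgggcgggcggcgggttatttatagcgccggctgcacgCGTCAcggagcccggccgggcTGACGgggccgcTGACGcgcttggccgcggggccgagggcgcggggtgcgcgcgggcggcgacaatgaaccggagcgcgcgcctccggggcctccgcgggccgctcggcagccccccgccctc
Nr4a3: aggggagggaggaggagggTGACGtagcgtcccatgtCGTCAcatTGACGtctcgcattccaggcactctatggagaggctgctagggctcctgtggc
Fos: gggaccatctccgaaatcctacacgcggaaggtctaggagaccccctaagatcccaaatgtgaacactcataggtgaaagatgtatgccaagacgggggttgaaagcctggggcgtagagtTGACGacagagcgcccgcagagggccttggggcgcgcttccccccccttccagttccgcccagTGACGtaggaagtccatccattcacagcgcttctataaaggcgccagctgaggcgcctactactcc

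In the whole window, 250 bases before to 50 after the start, *Nr4a1*, *Nr4a2* and *Nr4a3* each held 4 copies of TGACG counted on both strands, *Fos* held 2, *Fosb*, *Junb* and *Atf3* held 1 each and *Jun* held none. Of 27025 genes with a promoter in the same table, 21% had at least 1 copy and 0.252% had at least 4. The full CRE, TGACGTCA, the AP-1 site TGAGTCA and the CArG box bound by SRF were in none of the 8 promoters, against 1.88%, 5.17% and 1.57% of all promoters. A full CRE would count as 2 copies of TGACG, 1 on each strand. A match is a description of letters, and these windows leave out more distant elements. The promoters of *Egr1* and *Fosl1* were not analysed here.

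*Nr4a3* was close to silent in 10 of the 11 groups. *Wild-type* set A had counts of 0, 0 and 0, set B of 0, 2 and 2, *Hp1αΔ/Δ* ESCs of 0, 1 and 0, *Hp1βΔ/Δ* of 6, 4 and 4 and *Hp1γΔ/Δ* of 1, 3 and 1. The double mutants had 2, 3 and 2 (*Hp1α/βΔ/Δ*), 8, 0 and 0 (*Hp1β/γΔ/Δ*) and 0, 0 and 2 (*Hp1α/γΔ/Δ*). The triple mutant had 942, 810 and 998 counts, or 40.4, 38.5 and 38.6 CPM, far above every other library. With set A at 0 and a floor of 3 counts in each of its libraries, this was at least 278-fold higher, and against the 7 counts of *Hp1α/βΔ/Δ* the ratio was 363. Both values describe the rise for which *Nr4a3* was chosen. *Nr4a3* failed the filter on low counts, about 10 counts in each of 3 libraries, in every comparison made without the triple mutant.

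In *Setdb1* knockout cells *Nr4a3* had 16, 14 and 5 counts against 1, 0 and 2 in *Setdb1F/F* cells, so each knockout library was above each control library. The ratio was 10.3, with a 95% exact binomial interval of 3.23 to 52.1 that covers counting error only. The level, 0.568 ± 0.296 CPM (SD, n = 3), was still far below the 39.2 ± 1.07 CPM of the triple mutant. With 2 of the 3 knockout libraries over 10 counts, *Nr4a3* failed the filter in this comparison. When the filter was lowered to 1 count it was called (edgeR adjusted p = 8.49e-05), as it was in DESeq2 (adjusted p = 0.00352). It also passed the filter and was called without *Setdb1F/F* replicate 1 (edgeR adjusted p = 0.00537), 2 (0.00632) or 3 (0.00167) or knockout replicate 3 (0.000259). In each of those runs the filter was met only by the 2 knockout libraries over 10 counts, so these calls add no separate support.

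Around *Nr4a3*, within 500 kb, 6 other genes reached 1 CPM in a group, and their log2 differences between the triple mutant and set A ran from −1.06 to 1.08. The largest of these rises was that of *Stx17*, from 6.21 to 13.7 CPM, named after its values were seen.

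*Nr4a1* behaved otherwise. It was well expressed in both *wild-type* sets, at 30.3, 30.3 and 29.8 CPM in set A and 27.0, 35.7 and 34.9 CPM in set B. In the triple mutant it was at 24.0, 21.6 and 25.7 CPM, below every *wild-type* library, with a log2 difference of −0.30 ± 0.07 (SE) from set A and of −0.56 ± 0.08 from *Hp1α/βΔ/Δ*. On the deposited TPM scale, which has no such scaling, the triple mutant was instead the higher, at 21.7 ± 2.47 TPM against 19.9 ± 1.02 TPM. The lowest level was that of *Setdb1* knockout cells, at 11.95, 13.2 and 13.4 CPM, against 47.2, 57.9 and 53.5 CPM in *Setdb1F/F* cells. *Nr4a1* thus fell 4.06-fold there (log2 −2.02 ± 0.08, edgeR adjusted p = 8.46e-14), with no overlap.

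The highest *Nr4a1* levels were those of *Hp1α/γΔ/Δ* (69.2, 87.7 and 67.9 CPM) and *Hp1βΔ/Δ* ESCs (56.8, 53.9 and 58.6 CPM), each above all libraries of its control. The former was a rise of 2.23-fold over set B (edgeR adjusted p = 0.000917), which with library totals alone was a log2 difference of 0.98 and no longer called, and the latter, 1.85-fold over set A (edgeR adjusted p = 4.17e-07), stayed under the 2-fold limit set for a call. On the deposited TPM scale *Hp1βΔ/Δ* was the highest of the 11 groups. In all, 3 of the 10 pairs of neighbours in the order of the 11 group means had overlapping ranges.

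*Nr4a2* stayed low throughout, between 2 and 22 counts in a library. It was highest in *Setdb1F/F* cells, with 22, 21 and 11 counts against 14, 5 and 10 in the knockout, and these ranges overlapped. The difference was past both limits (log2 −1.05 ± 0.40, edgeR adjusted p = 0.0236), but the call was lost in DESeq2 (adjusted p = 0.0716) and in edgeR without *Setdb1F/F* replicate 1 (adjusted p = 0.0784) or 2 (0.0936) or knockout replicate 2 (0.123) or 3 (0.0574), as well as with library totals alone (0.0815). The triple mutant, at 10, 14 and 12 counts, overlapped set A, at 11, 7 and 12.

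**Figure D1:**
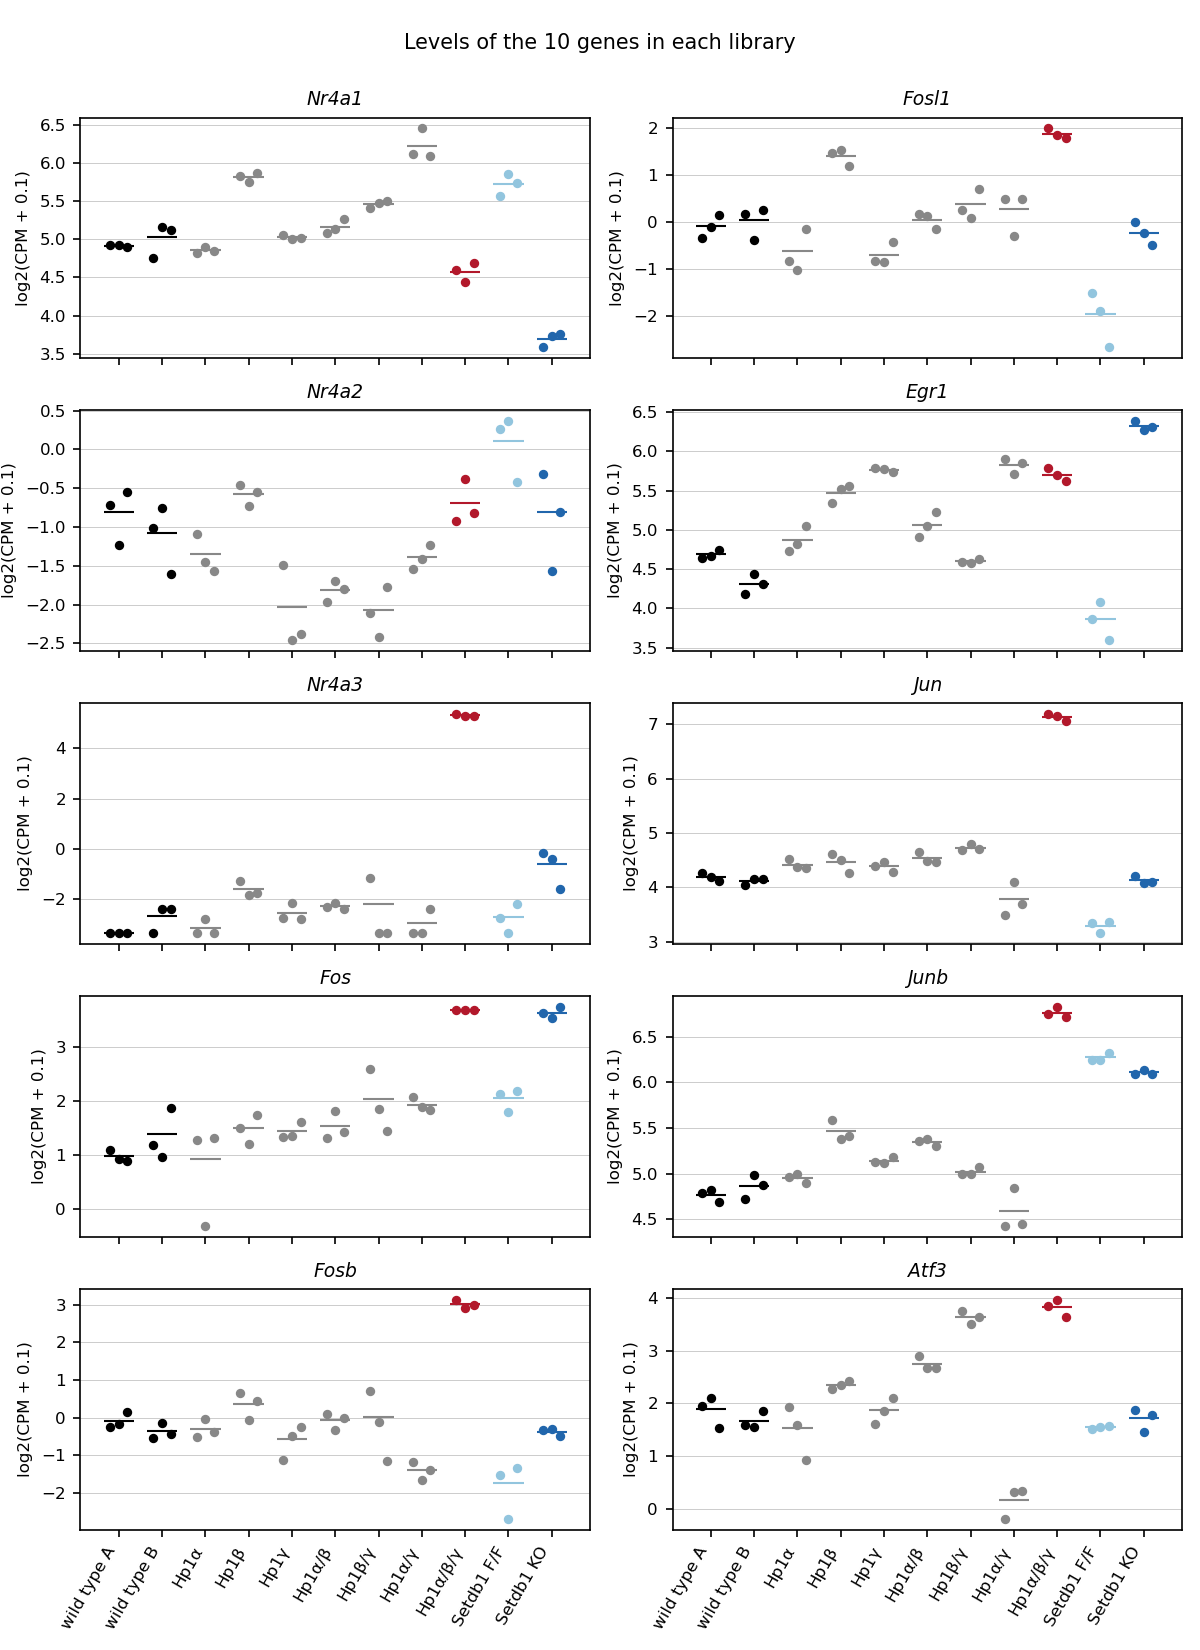
Level of each of the 10 genes in each of the 33 libraries as log2(CPM + 0.1) (y axis) by group (x axis, 3 points per group, horizontal line at the group mean). The triple mutant (red) is the highest group for 7 genes, and *Setdb1* knockout (dark blue) lies above *Setdb1F/F* (light blue) for *Nr4a3*, *Fos*, *Fosb*, *Fosl1*, *Egr1* and *Jun* and has a lower mean for *Nr4a1*, *Nr4a2* and *Junb*, the last only with TMM scaling.

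Compared per length, as deposited TPM, the most abundant of the 10 in *wild-type* set A were *Junb* (22.9 ± 1.003 TPM, SD, n = 3), *Nr4a1* (19.9 ± 1.02), *Egr1* (10.5 ± 0.588) and *Jun* (8 ± 0.374). *Atf3*, *Fosl1* and *Fos* lay between 1.33 and 2.98 TPM, *Fosb* and *Nr4a2* below 0.4 TPM, and *Nr4a3* was listed at 0. In the triple mutant *Junb* (119 ± 3.64 TPM) and *Jun* (80.3 ± 3.37 TPM) led, and *Nr4a3* (12.7 ± 0.568 TPM) stood beside *Fos* (12.6 ± 0.447 TPM) and *Atf3* (14.6 ± 2.05 TPM), with overlapping ranges. TPM of *Fos* and *Fosl1* was less steady than the counts: 1 *Hp1αΔ/Δ* library had 50 counts of *Fos* at 16.5 TPM and another 50 counts at 1.64 TPM.

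Among the FOS family, *Fos* (chromosome 12, 85473890 to 85477273) was high in the triple mutant and in *Setdb1* knockout cells. Set A had 2.04, 1.81 and 1.75 CPM and the triple mutant 12.8, 12.7 and 12.8 CPM, with no overlap and a difference of 6.99-fold. *Setdb1F/F* cells had 4.25, 3.39 and 4.43 CPM and knockout cells 12.3, 11.5 and 13.2 CPM, and the groups did not overlap. This was a rise of 3.09-fold (log2 1.63 ± 0.12, edgeR adjusted p = 1.13e-09). Across the single and double mutants the log2 difference of *Fos* from the control ran from −0.06 to 0.66 and none was called.

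*Fosb* (chromosome 7, 19302696 to 19310051, reverse strand), a FOS paralog, had 54 counts over the 3 libraries of set A and 561 over those of the triple mutant. Its levels there were 8.58, 7.42 and 7.93 CPM against 0.740, 0.788 and 1.02 CPM, a difference of 9.61-fold. *Setdb1* knockout cells had 14, 15 and 13 counts against 5, 1 and 5, a rise of 3.32-fold (edgeR adjusted p = 0.00332), with no overlap. *Fosb* met the filter on counts there only through the knockout libraries. The *Setdb1F/F* mean was the lowest of the 11 groups, and the knockout mean, 0.676 CPM, was no higher than those of sets A (0.849) and B (0.680). In *Hp1α/γΔ/Δ* ESCs *Fosb* was lower than in set B, at 7, 4 and 6 counts against 12, 18 and 14 (log2 −1.29 ± 0.36, edgeR adjusted p = 0.0221). At these counts that call was not stable: it was lost without *Hp1α/γΔ/Δ* replicate 3 (adjusted p = 0.0646) and without set B replicate 1 (0.0519), 2 (0.0957) or 3 (0.0691), and in DESeq2 (0.117).

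*Fosl1* (chromosome 19, 5447547 to 5455946), which encodes FRA-1, was the only one of the 10 called in *Hp1βΔ/Δ* ESCs. It was at 2.68, 2.83 and 2.18 CPM there and at 0.694, 0.834 and 1.02 CPM in set A, without overlap, and rose 2.97-fold (log2 1.57 ± 0.29, edgeR adjusted p = 0.000919). It also rose in *Setdb1* knockout cells, 4.51-fold from 5, 3 and 1 counts to 18, 16 and 13 (edgeR adjusted p = 0.000553). *Fosl1* met the filter on counts there only through the knockout libraries. The *Setdb1F/F* mean was the lowest of the 11 groups, and the knockout mean, 0.758 CPM, was no higher than those of sets A (0.849) and B (0.935). In the triple mutant the 3.90, 3.52 and 3.37 CPM of *Fosl1* were 4.33-fold above set A.

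The JUN partners differed between the mutants. *Jun* (chromosome 4, 95049034 to 95052222, reverse strand) was at 145, 143 and 134 CPM in the triple mutant and at 8.86 to 27.8 CPM in the 30 other libraries, and its difference from set A (19.0, 18.2 and 17.2 CPM) was 7.96-fold. *Setdb1* knockout cells had *Jun* at 18.4, 16.9 and 17.1 CPM, all above the 10.1, 8.86 and 10.2 CPM of *Setdb1F/F* cells. That rise, 1.82-fold, was larger than the spread (edgeR adjusted p = 4.55e-08) and under the 2-fold limit, which it passed with library totals alone (log2 1.13). *Setdb1F/F* had the lowest *Jun* mean of the 11 groups, and the knockout mean, 17.4 CPM, lay between those of sets B (17.2) and A (18.1). *Hp1β/γΔ/Δ* ESCs had the next highest *Jun* level after the triple mutant, 25.7, 27.8 and 25.8 CPM, or 1.53-fold over set B (edgeR adjusted p = 3.56e-06).

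*Junb* (chromosome 8, 84974484 to 84978718, reverse strand) was at 107, 113 and 105 CPM in the triple mutant against 27.5, 28.1 and 25.7 CPM in set A, 4.11-fold higher. Both *Setdb1* groups were high in *Junb*, at 76.0, 75.7 and 80.1 CPM in *Setdb1F/F* and 68.2, 70.3 and 68.3 CPM in knockout cells. The knockout was the lower of them by a log2 difference of −0.15 ± 0.04 (edgeR adjusted p = 0.00131), which is under the limit for a call and turned with the scaling: with library totals alone it was 0.12, and the deposited TPM were 63.0 ± 1.77 in *Setdb1F/F* and 79.9 ± 1.23 in knockout cells. *Hp1βΔ/Δ* and *Hp1α/βΔ/Δ* ESCs had 1.60-fold (edgeR adjusted p = 1.16e-05) and 1.5-fold (edgeR adjusted p = 4.98e-07) the *Junb* of set A, both also under it.

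*Egr1* (ENSMUSG00000038418; chromosome 18, 34859823 to 34864984) had its highest level in *Setdb1* knockout cells. It was at 83.3, 77.3 and 79.2 CPM there and at 14.5, 16.9 and 12.04 CPM in *Setdb1F/F* cells, the lowest group. This was a rise of 5.57-fold (log2 2.48 ± 0.07, edgeR adjusted p = 2.12e-15), the largest of the 6 calls among the 10 genes in that comparison. The triple mutant, at 55.0, 51.8 and 49.1 CPM, overlapped *Hp1γΔ/Δ* ESCs at 55.1, 54.6 and 53.5 CPM, and the ranges of *Hp1γΔ/Δ* overlapped in turn with *Hp1α/γΔ/Δ* at 59.7, 52.3 and 57.5 CPM.

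*Egr1* also moved in single mutants. Against the 24.98, 25.3 and 26.7 CPM of set A it rose 2.11-fold in *Hp1γΔ/Δ* ESCs (log2 1.08 ± 0.05, edgeR adjusted p = 1.05e-11) and 1.71-fold in *Hp1βΔ/Δ* ESCs (edgeR adjusted p = 8.67e-06, under the limit). The rise in *Hp1α/γΔ/Δ* over set B was 2.78-fold (edgeR adjusted p = 0.000193). *Hp1β/γΔ/Δ* ESCs, at 23.9, 23.8 and 24.7 CPM, did not share it: the log2 difference was 0.29 ± 0.08 from set B, and −0.08 when set A was the control. *Egr1* itself was lower in set B than in set A by a log2 difference of −0.37 ± 0.08 (edgeR adjusted p = 0.00272).

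*Atf3* (chromosome 1, 191170296 to 191218039, reverse strand) went opposite ways in 2 double mutants. Set B was at 2.91, 2.82 and 3.52 CPM, *Hp1β/γΔ/Δ* ESCs were at 13.4, 11.3 and 12.3 CPM, and *Hp1α/γΔ/Δ* ESCs at 0.783, 1.16 and 1.17 CPM, so that the 3 groups were apart from one another. The rise in *Hp1β/γΔ/Δ* was 4.003-fold (log2 2.001 ± 0.13, edgeR adjusted p = 4.82e-09), and the fall in *Hp1α/γΔ/Δ* 3.06-fold (log2 −1.61 ± 0.24, edgeR adjusted p = 0.00168). Tested directly, *Atf3* was 12.2-fold higher in *Hp1β/γΔ/Δ* than in *Hp1α/γΔ/Δ* ESCs (log2 3.62 ± 0.18, edgeR adjusted p = 2.8e-05), a comparison added after the values had been seen. The triple mutant, at 14.3, 15.4 and 12.4 CPM, overlapped *Hp1β/γΔ/Δ*, and its level was 3.97-fold that of set A. *Hp1α/βΔ/Δ* ESCs had 7.32, 6.26 and 6.30 CPM, above all libraries of set A (3.79, 4.21 and 2.81 CPM), with a difference of 1.83-fold (edgeR adjusted p = 0.000679) that is under the limit.

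Other genes moved between these double mutants as well. In the direct comparison 23.9% of the 16210 genes tested were called, 17.5% higher and 6.42% lower in *Hp1β/γΔ/Δ*. Of the 7 members tested *Atf3* was called higher and *Egr1* lower (2.27-fold, edgeR adjusted p = 0.000224). *Jun* lay at the limit (log2 0.998 ± 0.15), and was called without *Hp1α/γΔ/Δ* replicate 2 (log2 1.14), without *Hp1β/γΔ/Δ* replicate 1 (1.02) or 3 (1.01), and with library totals alone (1.19). *Fosb*, which failed the filter, was called without *Hp1α/γΔ/Δ* replicate 2 (log2 1.51) or *Hp1β/γΔ/Δ* replicate 3 (2.08). Of the 10 feeder fibroblast markers tested, 7 were higher in *Hp1β/γΔ/Δ* and none lower. The sum of all 15 was 56.3 to 59.1 CPM there, 18.8 to 19.9 CPM in *Hp1α/γΔ/Δ* and 62.3 to 72.2 CPM in set B, and the part of feeder RNA in the *Atf3*, *Fosb* and *Egr1* differences was not tested.

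Counted by comparison, a gene was called at an edgeR adjusted p under 0.05 over all genes tested and a log2 difference over 1. In *Hp1αΔ/Δ* ESCs 0 of 8 members tested were called by edgeR and 0 by DESeq2, while 3 had an unadjusted p under 0.05 and 2, *Jun* and *Junb*, an adjusted p under 0.05 without the fold limit. Of all genes 4.87% were called, 1.56% higher and 3.31% lower. In *Hp1βΔ/Δ* 1 of 9 was called, against 9.1% of all genes (2.75% higher and 6.36% lower), and in *Hp1γΔ/Δ* 1 of 8 against 5.59% (2.04% higher and 3.55% lower). In *Hp1γΔ/Δ*, *Nr4a2*, with 5, 2 and 2 counts, was also called when replicate 1 (log2 −2.36) or set A replicate 2 (log2 −1.93) was left out. In *Hp1α/βΔ/Δ* 0 of 8 were called by edgeR and 0 by DESeq2, with 6 at an unadjusted p under 0.05 and 5 past the adjusted one without the fold limit, against 8.15% (2.96% higher and 5.19% lower). These 4 mutants share the libraries of set A as their control.

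In *Hp1β/γΔ/Δ* ESCs 1 of 8 members tested was called, against 11.9% of all genes (7.32% higher and 4.54% lower). In *Hp1α/γΔ/Δ* 4 of 8 were called, 2 in each direction, against 23.1% (6.75% higher and 16.3% lower), and without its replicate 2 the count was still 4. Of the feeder markers 9 of 11 tested were lower there and none higher, and of the ESC markers 5 of 12 were higher and none lower, with sums of 6868 to 9805 CPM against 4330 to 4410 CPM in set B. In *Setdb1* knockout cells 6 of 9 were called, 4 higher and 2 lower, against 29.9% (18.5% higher and 11.4% lower). Of these, *Fosb* and *Fosl1* met the filter on counts only through the knockout libraries. *Nr4a2* met it only through those of *Setdb1F/F*, so each entered through the group where it was higher. With 10 counts required in every library these genes were not tested. Of all calls in this comparison 62% were higher, and 75.6% with library totals alone. Cell type markers moved with the same libraries. The ESC markers summed to 8423 to 8430 CPM in *Setdb1F/F* and to 5421 to 5480 CPM in knockout cells, with 3 of 12 lower and none higher, and 10 endoderm markers, all detected in both groups, fell from a sum of 326 to 339 CPM to one of 65.7 to 69.3 CPM, with 7 lower and 1 higher (median log2 −1.57). The part of these changes in the members' differences was not tested, in either mutant. Between the *wild-type* sets 0 of 9 were called by edgeR and 0 by DESeq2, and 1, *Egr1*, had an unadjusted and an adjusted p under 0.05, against 5.68% of all genes (2.55% higher and 3.12% lower in set B).

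In the triple mutant genes were counted by the log2 limit of 1 alone, with no test. Against set A 8 of the 10 genes were past it, all higher, where 42.6% of all genes with enough counts were (25.3% higher and 17.3% lower). Against *Hp1α/βΔ/Δ* ESCs it was again 8 higher, with *Nr4a2* in place of *Egr1*, where 41.8% of all genes were (25.7% higher and 16.2% lower). The genes were proposed from this group, so nothing is read from these counts. Of all genes past the limit against set A 59.5% were higher, and 71.3% with library totals alone, and against *Hp1α/βΔ/Δ* 61.4% and 74.5%. The ESC marker list moved with the same libraries: 9 of its 12 genes were past the limit downwards against set A and none upwards, with a median log2 difference of −1.39.

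**Figure D2:**
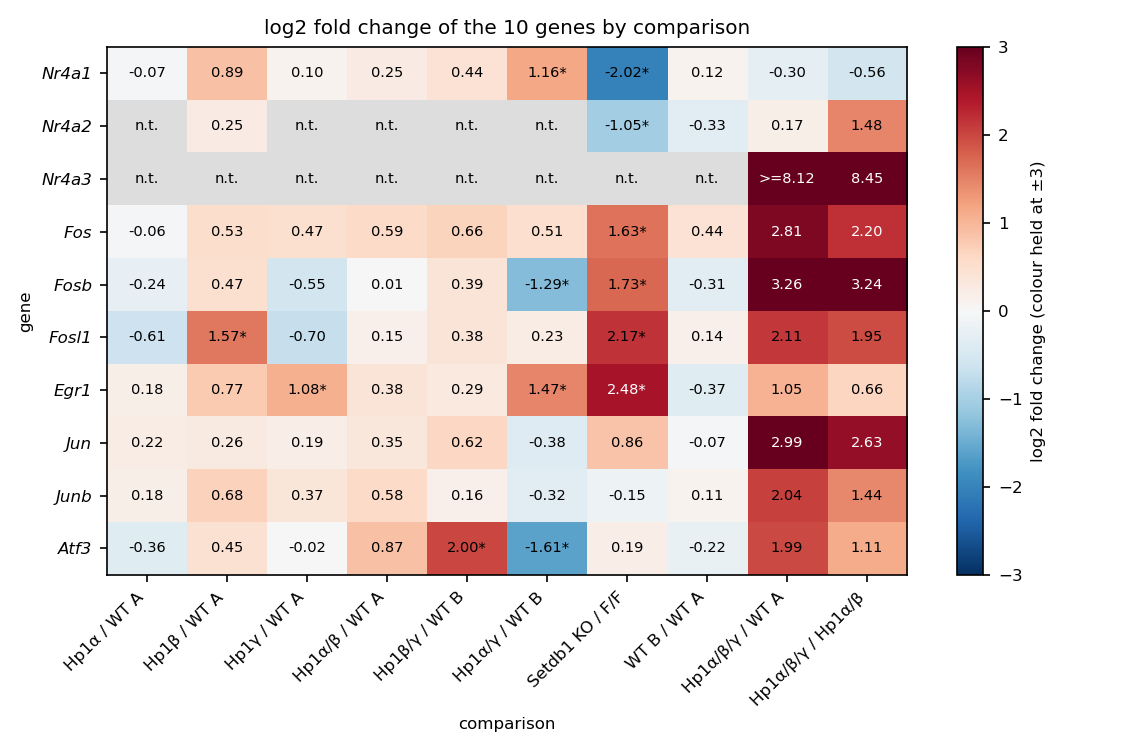
Log2 difference of each gene (rows) in each comparison (columns, first group over second), from edgeR fits on 6 libraries each, with an asterisk, outside the triple mutant, where adjusted p was under 0.05 and the log2 difference over 1, and n.t. where the gene failed the filter on counts. The *Nr4a3* cell marked >= is the bound from a floor of 3 counts, 8.12, and the colour is held at ±3. The last 2 columns hold the triple mutant and are dark red for *Nr4a3*, *Fosb* and *Jun*, while the *Setdb1* column is red for *Egr1* and blue for *Nr4a1*.

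Whether loss of *Hp1α* moved the genes differently with and without *Hp1β* was tested as an interaction over 12 libraries, none of them from the triple mutant. The mutant groups were different lines, so clone and genotype cannot be told apart in this contrast. Of 9 members tested 4 passed at an adjusted p under 0.05, where 45% of all genes tested did, so the members' share was near that of all genes. For *Nr4a1* the group means were 30.1 CPM in set A, 28.9 in *Hp1αΔ/Δ*, 56.4 in *Hp1βΔ/Δ* and 35.7 in *Hp1α/βΔ/Δ* ESCs. The higher level of the *Hp1β* mutant was thus mostly absent when *Hp1α* was lost too (interaction log2 −0.57 ± 0.08, edgeR adjusted p = 2.6e-05). *Egr1*, at 25.7, 29.2, 44.4 and 33.5 CPM in the same groups, was likewise highest in *Hp1βΔ/Δ* and lower in *Hp1α/βΔ/Δ* (log2 −0.57 ± 0.13, edgeR adjusted p = 0.00157).

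*Junb* had a smaller interaction of the same sign (log2 −0.27 ± 0.09, edgeR adjusted p = 0.0172), which was lost without *Hp1βΔ/Δ* replicate 1 (adjusted p = 0.0642) or set A replicate 3 (0.0503). *Atf3* had one of the opposite sign, with means of 3.61, 2.81, 4.98 and 6.63 CPM (log2 0.79 ± 0.30, edgeR adjusted p = 0.0374). This call was the least stable, since it was lost in DESeq2 (adjusted p = 0.0508) and when any of 7 single libraries was left out: set A replicate 1 (0.0738) or 2 (0.103), *Hp1αΔ/Δ* replicate 2 (0.0535) or 3 (0.0983), *Hp1βΔ/Δ* replicate 2 (0.0564), or *Hp1α/βΔ/Δ* replicate 1 (0.0819) or 3 (0.0502).

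**Figure D3:**
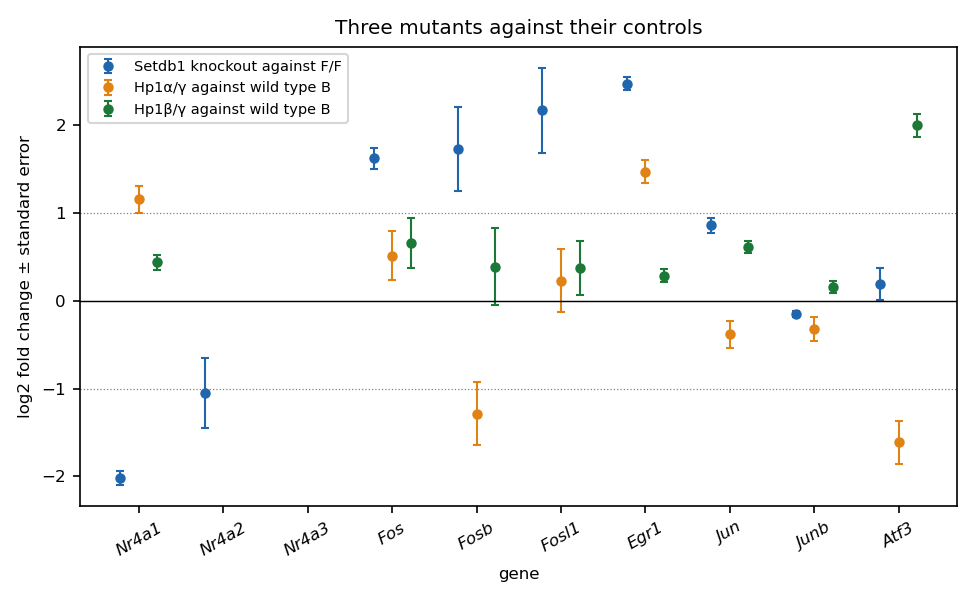
Log2 difference (points) with its standard error (bars) for the members tested in *Setdb1* knockout cells against *Setdb1F/F*, and in *Hp1α/γΔ/Δ* and *Hp1β/γΔ/Δ* ESCs against *wild-type* set B. Dotted lines mark the limit of 1 for a call. *Atf3* lies at 2.001 in *Hp1β/γΔ/Δ* and at −1.61 in *Hp1α/γΔ/Δ*, and *Nr4a1* at −2.02 in *Setdb1* knockout cells and at 1.16 in *Hp1α/γΔ/Δ*.

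The rest of the immediate early programme was followed in 43 other genes, all found in the tables. Of the 39 tested in *Setdb1* knockout cells 8 rose and 8 fell (median log2 0.21, against 0.01 over all genes). Of all genes tested 18.5% rose and 11.4% fell there, so the rises were near the share of all genes. The largest rises were those of *Gadd45g*, a growth arrest and DNA damage gene, from a mean of 0.331 to 8.55 CPM (log2 4.69 ± 0.21, edgeR adjusted p = 8.47e-13), *Ccn1*, a secreted matrix protein and target of SRF and YAP (log2 3.17 ± 0.08, edgeR adjusted p = 4.39e-16), and *Rgs2*, a regulator of G protein signalling (log2 3.09 ± 0.43, edgeR adjusted p = 4.29e-06). *Rgs2* was low in both groups, at a mean of 0.169 CPM in *Setdb1F/F* and 1.44 CPM in knockout cells. At their *Setdb1F/F* means, *Gadd45g* and *Rgs2* met the filter on counts only through the knockout libraries, where they were higher. The largest falls were those of *Nfil3* (log2 −2.33 ± 0.18), *Trib1* (−1.48 ± 0.11) and *Sik1* (−1.46 ± 0.03).

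In *Hp1βΔ/Δ* ESCs 7 of 40 tested rose and 1 fell (median log2 0.49, against −0.03 over all genes), where 2.75% of all genes rose and 6.36% fell. *Id3* (log2 2.39 ± 0.06), *Plk2* (1.58 ± 0.06) and *Id1* (1.45 ± 0.05) led, with edgeR adjusted p of 1.35e-09, 9.12e-09 and 8.45e-09, and *Maff*, a small MAF factor, fell (−1.20 ± 0.12, edgeR adjusted p = 1.03e-05). *Hp1β/γΔ/Δ* ESCs had 9 of 40 higher and 1 lower (median 0.21), led by *Id3* (1.81 ± 0.09), *Ccn1* (1.75 ± 0.05) and *Dusp2* (1.56 ± 0.41), with *Rgs2* the gene that fell (−1.21 ± 0.29). Of all genes 7.32% were higher and 4.54% lower in that mutant. *Id3*, an inhibitor of helix-loop-helix factors and a target of BMP signals, was also called higher in *Hp1αΔ/Δ* (log2 1.53 ± 0.08) and *Hp1γΔ/Δ* ESCs (1.70 ± 0.08), as well as in *Hp1α/βΔ/Δ* (1.25 ± 0.09) and *Hp1α/γΔ/Δ* ESCs (1.07 ± 0.26).

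*Hp1α/γΔ/Δ* ESCs had 6 of the 40 higher and 8 lower, where 6.75% of all genes were higher and 16.3% lower. *Egr3*, a relative of *Egr1*, rose (log2 2.78 ± 0.38, edgeR adjusted p = 0.0012), as did *Ccn2* (1.47 ± 0.10) and *Id1* (1.36 ± 0.21), and *Rgs2* (−2.50 ± 0.31), *Gadd45g* (−2.12 ± 0.35) and *Pim1* (−1.43 ± 0.11) fell. *Egr3* was low, at a mean of 0.157 CPM in set B and 1.13 CPM in *Hp1α/γΔ/Δ*, and *Rgs2* was at 1.40 and 0.251 CPM. At these means *Egr3* met the filter on counts only through *Hp1α/γΔ/Δ*, and *Rgs2* only through set B. *Hp1αΔ/Δ* had 2 higher and none lower, *Hp1γΔ/Δ* 2 higher and 1 lower, *Hp1α/βΔ/Δ* 2 in each direction, and set B 1 higher than set A. In the same order, the shares of all genes higher and lower were 1.56% and 3.31%, 2.04% and 3.55%, 2.96% and 5.19%, and 2.55% and 3.12%. In the triple mutant, by the fold limit alone here and in the lists that follow, 15 of 41 were higher and 8 lower than in set A, with *Ptgs2*, the inducible cyclooxygenase, highest in difference (log2 4.34), followed by *Gadd45g* (3.89) and *Klf10* (3.78), and *Ier3* lowest (−2.78), followed by *Myc* (−2.22) and *Pim1* (−1.92). By the same limit 25.3% of all genes were higher and 17.3% lower.

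The partners and regulators of the 10 genes were followed in shorter lists. Their counts, here and in the paragraphs that follow, are to be read beside the shares of all genes. These were 18.5% higher and 11.4% lower in *Setdb1* knockout cells, 7.32% and 4.54% in *Hp1β/γΔ/Δ*, 6.75% and 16.3% in *Hp1α/γΔ/Δ*, and 25.3% and 17.3% in the triple mutant. Among 16 bZIP genes that pair with AP-1, 3 of which are also in the preceding list, 4 of 14 rose and 3 fell in *Setdb1* knockout cells. *Maf* was among those that rose (log2 2.63 ± 0.47), at low means of 0.145 CPM in *Setdb1F/F* and 0.932 CPM in knockout cells. It met the filter on counts only through the knockout libraries. *Jdp2*, which represses AP-1 targets, fell most (−2.72 ± 0.13, edgeR adjusted p = 2.29e-12). *Jdp2* was also lower in *Hp1βΔ/Δ* ESCs (−1.60 ± 0.19, edgeR adjusted p = 3.42e-05) and by −2.18 in the triple mutant. *Hp1β/γΔ/Δ* had 3 of 12 higher, *Atf7* (2.23 ± 0.16), *Batf3* (1.30 ± 0.30) and *Fosl2* (1.07 ± 0.09), and none lower, whereas *Atf7* was the 1 gene of this list that fell in *Hp1α/γΔ/Δ* (−1.22 ± 0.34, edgeR adjusted p = 0.0222). *Atf7* also differed between the controls, being lower in set B than in set A (−1.50 ± 0.17, edgeR adjusted p = 1.06e-05).

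SRF and the ternary complex factors drive many immediate early promoters. Of 11 such genes and their kinases, 2 fell in *Setdb1* knockout cells, *Elk3* (log2 −1.61 ± 0.10) and *Mapk3*, which encodes ERK1 (−1.41 ± 0.05). *Elk3* also fell in *Hp1α/γΔ/Δ* ESCs (−2.16 ± 0.15, edgeR adjusted p = 9.48e-05), and 3 genes were lower in the triple mutant. Among 17 CREB, CRTC and MEF2 genes, *Mef2b* fell in *Hp1αΔ/Δ* (−1.19 ± 0.12), *Hp1βΔ/Δ* (−2.08 ± 0.13) and *Hp1γΔ/Δ* ESCs (−1.48 ± 0.13). *Mef2c* (−3.67 ± 0.78), *Hdac7* (−2.43 ± 0.18) and *Crtc3* (−2.13 ± 0.21) led the 4 that fell in *Hp1α/γΔ/Δ*. *Mef2c* was close to silent, at a mean of 0.685 CPM in set B and 0.0466 CPM in *Hp1α/γΔ/Δ*, and met the filter on counts only through set B.

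Both NAB corepressors of EGR1 were called in 1 mutant. In *Hp1α/γΔ/Δ* ESCs *Nab2*, which binds EGR1 and limits it, rose from a mean of 5.19 to 50.7 CPM (log2 3.24 ± 0.14, edgeR adjusted p = 2.36e-05) and *Nab1* rose as well (1.62 ± 0.17, edgeR adjusted p = 0.000372). The nuclear receptors *Nr5a2* (1.998 ± 0.19) and *Nr0b1* (1.76 ± 0.12) were the other 2 of the 10 genes on this list that rose there, and *Nr5a1* (−6.09 ± 0.69) and *Rxrg* (−1.97 ± 0.40) fell. Both that fell were low, *Nr5a1* at means of 1.5 CPM in set B and 0.0183 CPM in *Hp1α/γΔ/Δ*, and *Rxrg* at 1.04 and 0.275 CPM. Both met the filter on counts only through set B. *Nr5a1* was higher in set B, the control, than in set A (3.92 ± 0.60, edgeR adjusted p = 0.000164). In *Setdb1* knockout cells, where *Egr1* was highest, *Nab2* was at a mean of 30.5 against 18.2 CPM, under the limit (log2 0.76 ± 0.06, edgeR adjusted p = 3.9e-09), and *Nr0b1* (−1.98 ± 0.03) and *Rxra* (−1.24 ± 0.05) fell.

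The ATF4 pathway, through which *Atf3* responds to amino acid and unfolded protein stress, was followed in 14 genes. In *Setdb1* knockout cells *Atf3* was at 3.56, 2.65 and 3.35 CPM against 2.75, 2.82 and 2.89 CPM, which overlap (log2 0.19 ± 0.18, edgeR adjusted p = 0.342), while 8 of the 14 fell (median log2 −1.47). *Vldlr* (−3.18 ± 0.21), *Trib3* (−2.24 ± 0.09) and *Phgdh*, the first enzyme of serine synthesis (−2.23 ± 0.03), fell most. In the triple mutant 8 were lower and 2 higher, *Ddit3* (1.78) and *Ppp1r15a* (1.45), with *Trib3* at −3.17. In *Hp1β/γΔ/Δ* ESCs, where *Atf3* rose, their log2 differences ran from −0.63 to 0.46. In *Hp1α/γΔ/Δ* ESCs, where *Atf3* fell, 3 of the 14 were called lower and none higher, with 16.3% of all genes lower. *Hp1βΔ/Δ* ESCs also had 3 lower and none higher, with 6.36% of all genes lower.

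Among 10 heat shock genes, 3 fell in *Setdb1* knockout cells, the mitochondrial chaperones *Hspd1* (log2 −1.75 ± 0.02) and *Hspe1* (−1.44 ± 0.03) and the small heat shock gene *Hspb1* (−1.58 ± 0.04). In *Hp1α/γΔ/Δ* ESCs *Bag3* and *Hspa1a* fell and *Hspb1* rose. In the triple mutant *Hspa1a* was higher (log2 1.22), and *Hspd1* (−2.02), *Hspe1* and *Hspa8* were lower.

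**Figure D4:**
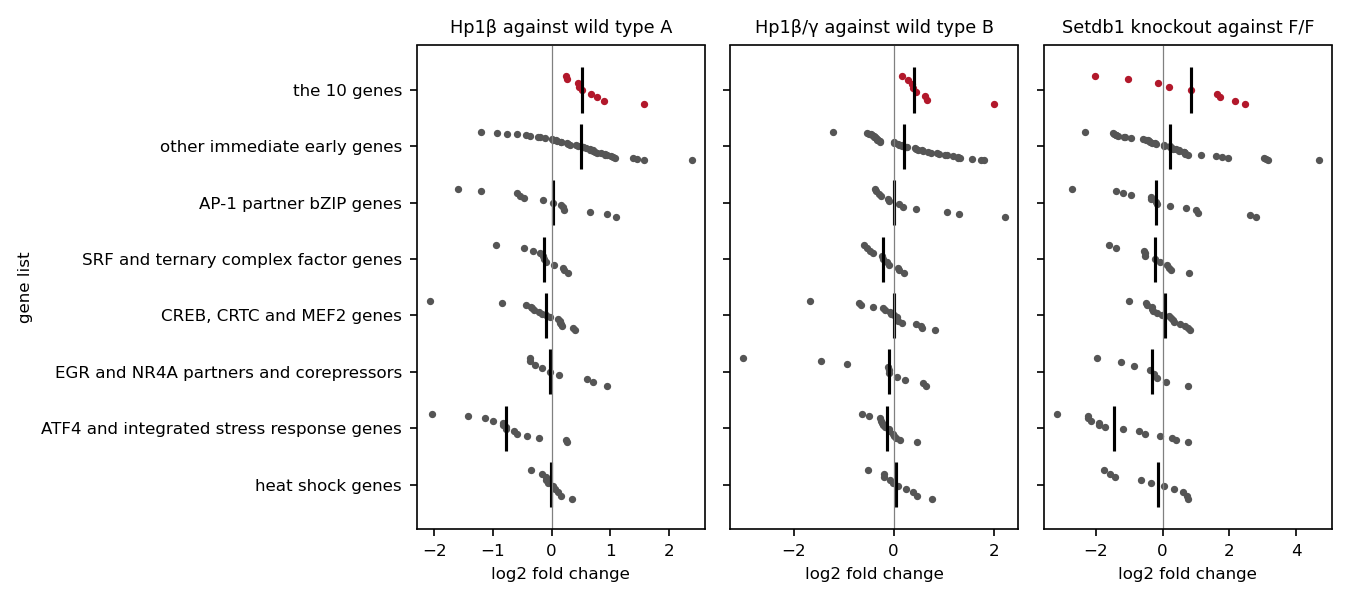
Log2 difference of each gene tested (points) by gene list (rows), with the list's median as a black bar, in *Hp1βΔ/Δ*, *Hp1β/γΔ/Δ* and *Setdb1* knockout cells against their controls. The 10 genes are in red. The median of the ATF4 list lies at −1.47 in the *Setdb1* panel, and that of the other immediate early genes at 0.49 in the *Hp1βΔ/Δ* panel.

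Over the 11 group means of log2(CPM + 0.5), the genes most like *Nr4a3* among 13525 genes with at least 5 CPM in a group were *Hoxd10* (Pearson r 0.997), *Pthlh* (0.997), *Cntnap4* (0.996), *Rad9a* (0.994) and *St18* (0.994). In all, 146 genes had an r over 0.95. These values rest on the triple mutant, from which *Nr4a3* was chosen: *Hoxd10*, *Pthlh*, *Cntnap4* and *St18* reached 5 CPM in that group alone and stayed at or below 0.524 CPM in the other 10. Without the triple mutant the r of the 5 genes was between 0.783 and 0.904. Over those 10 groups *Nr4a3* and all 5 genes had their highest mean in *Setdb1* knockout cells, with *Nr4a3* at only 0.568 CPM. Little likeness can thus be read from the remaining r. Those most like *Egr1* were *Fbxl15* (0.924), *Med10* (0.917), *Coil* (0.914), *Dusp27* (0.910) and *Nudt22* (0.904), and 6 genes had an r over 0.9. *Dusp27* went from 14.4 CPM in *Setdb1F/F* to 293 CPM in *Setdb1* knockout cells. The groups share library preparation and some controls, and these values describe them without a test.

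Among the 10 genes themselves, *Fosb* and *Jun* were the most alike over the 11 groups (r 0.979, and 0.866 over the 10 groups without the triple mutant). *Nr4a3* and *Jun* had an r of 0.912 that was 0.141 without the triple mutant. *Nr4a1* had an r with the other 9 genes from −0.488 (*Fos*) to 0.0127 (*Nr4a2*). Without the triple mutant it ran from −0.554 (*Nr4a3*) to 0.244 (*Fosl1*). These are descriptions over group means that differ in counting error, largest for *Nr4a2*, *Nr4a3*, *Fosb* and *Fosl1*.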

How the data were processed

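Total RNA of mouse ESCs was sequenced by the authors after a TruSeq preparation, named by the labels as the RNA kit and by the study's methods as the stranded total RNA kit. The submitters' processing notes name GRCm38.p5, TopHat2 2.1.1, RSEM and edgeR. Each of 8 deposited tables pairs a mutant with its control and holds, per gene, estimated counts (expected_counts) and TPM, both made by the authors without further normalization here. The log2 fold changes and adjusted p values computed by the authors were not used. In each library, 11.2% to 15.5% of the deposited values were not whole, and counts were rounded. The 30 control columns repeated between tables held identical values.

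The edgeR quasi-likelihood test (edgeR 4.0.16, limma 3.58.1, R 4.3.3) was fitted over every gene that passed filterByExpr (minimum count 10), with TMM scaling, on the 6 libraries of each comparison (12 for the interaction), with Benjamini-Hochberg adjustment. DESeq2 1.42.0 was an alternative. Fits were tried on simulated counts in which only well-expressed genes were changed, with the same dispersion for every gene. Genes with few counts, and groups with widely spread libraries, were thus not covered. Counts in the triple mutant used the log2 limit alone. SE is the log2 fold change divided by the root of F. CPM used TMM over 33 libraries. Genes were named by rule: the 10 members, the targeted genes, up to 3 rises and 3 falls of a list, and the 5 closest correlates of *Nr4a3* and *Egr1*. A gene that this rule names is not reported here. The members and lists were chosen with earlier results of these data known. P-values measure the spread between these libraries, which the study calls biological replicates. At the lowest depth, 17330936 counts, 10 counts are near the filter's edge. Other scalings and filters, a joint fit, the other wild-type set, a replicate block and leaving out each library were tried.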

Additional observations from a re-analysis of the deposited data

Results flagged for a closer look

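For 4 of the 9 members tested in the interaction, the difference seen without *Hp1α* was not the same in lines with and without *Hp1β*. Clone and genotype cannot be told apart in these lines. The log2 interaction was −0.57 for *Nr4a1* (edgeR adjusted p = 2.6e-05), −0.57 for *Egr1* (edgeR adjusted p = 0.00157), −0.27 for *Junb* (edgeR adjusted p = 0.0172) and 0.79 for *Atf3* (edgeR adjusted p = 0.0374). Of all genes tested 45% passed the same threshold, a share near that of the members, so the count says nothing particular about them. With 3 libraries per group, Dixon's test for a sample far from its group was not applied.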

How the results depend on the processing

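Calls kept their direction in every alternative run. Of the recomputed counts 160 stayed within 1.5 times the reported one while 20 did not. These are counts of called members and of genes highest in the triple mutant, and 0 against 0 was scored as staying. Without the fold limit the counts were 2 (*Hp1αΔ/Δ*), 5 (*Hp1βΔ/Δ*), 2 (*Hp1γΔ/Δ*), 5 (*Hp1α/βΔ/Δ*), 4 (*Hp1β/γΔ/Δ*), 1 (set B against A) and 5 (*Hp1β/γΔ/Δ* against *Hp1α/γΔ/Δ*). With no filter *Hp1βΔ/Δ* had 2. One fit over all set A groups gave 2 (*Hp1βΔ/Δ*), 3 (*Hp1γΔ/Δ*) and 1 (*Hp1α/βΔ/Δ*). *Nr4a3* was an added call in each of these, at 1 to 6 counts per library against 0 in set A, and in the fit over all groups it passed the filter through the counts of the triple mutant. The other *wild-type* set as control gave 2 (*Hp1βΔ/Δ*), 1 (*Hp1α/βΔ/Δ*) and 2 (*Hp1β/γΔ/Δ*). Requiring 10 counts in every library left 3 calls in *Setdb1* knockout cells, as *Fosb*, *Fosl1* and *Nr4a2* were then not tested, and an interaction limit of 1 left 0. Leaving out 1 library gave 1 to 2 calls in *Hp1γΔ/Δ* (2 without *Hp1γΔ/Δ* replicate 1 or set A replicate 2) and 2 to 4 for *Hp1β/γΔ/Δ* against *Hp1α/γΔ/Δ* (4 without *Hp1α/γΔ/Δ* replicate 2 or *Hp1β/γΔ/Δ* replicate 3). The cause was not tested.

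Signs turned for these log2 values. With the other *wild-type* set, *Fosb* in *Hp1αΔ/Δ* was 0.082, *Atf3* in *Hp1γΔ/Δ* 0.22 and *Egr1* in *Hp1β/γΔ/Δ* −0.081. With total-count scaling, added after seeing the data, *Junb* in *Setdb1* knockout cells was 0.12 and *Fosb* in *Hp1α/βΔ/Δ* −0.0047. Leaving out single libraries, *Fos* in *Hp1αΔ/Δ* ran from −0.31 to 0.33, *Atf3* in *Hp1γΔ/Δ* from −0.16 to 0.11, *Fosb* in *Hp1α/βΔ/Δ* from −0.087 to 0.16 and in *Hp1β/γΔ/Δ* from −0.23 to 0.80, *Nr4a2* in the triple mutant against set A from −0.060 to 0.32, the *Fos* interaction from −0.27 to 0.38, and between *Hp1β/γΔ/Δ* and *Hp1α/γΔ/Δ* *Fos* from −0.24 to 0.38 and *Fosl1* from −0.11 to 0.28.

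Replicate numbers did not pair the libraries: deviations of same-numbered libraries correlated at −0.136 to 0.0608 over 11 comparisons, and in 1 of them did every library correlate best with its own number. With the replicate number as a block the counts were 0 (*Hp1αΔ/Δ*), 1 (*Hp1βΔ/Δ*), 1 (*Hp1γΔ/Δ*), 0 (*Hp1α/βΔ/Δ*), 1 (*Hp1β/γΔ/Δ*), 3 (*Hp1α/γΔ/Δ*), 6 (*Setdb1*), 8 and 8 (triple mutant), 4 (interaction) and 3 (*Hp1β/γΔ/Δ* against *Hp1α/γΔ/Δ*). Depth limits *Nr4a2*, *Nr4a3*, *Fosb* and *Fosl1*, with few counts per library outside the triple mutant.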
